A study of Glycine max with 30 samples.

Results

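The 188 genes described here were those whose transcripts rose most steeply during seed filling in 3MWT, the soybean line with normal phytic acid. They were chosen from the 54175 genes of the deposited tables by their mean normalized count per stage over the 3MWT replicates. A normalized count is a raw read count divided by a size factor of its library. Genes whose mean was highest at stage 5 and at least 500 there numbered 3906. The 200 of these with the largest log2 ratio of stage 5 to stage 1, after adding 1 to each mean, were taken, and 12 of them were among 13 genes named in advance to be set aside. Because 3MWT values chose the genes, the rise in 3MWT is given below as a description and was not tested.

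Whole developing seeds of both lines were sequenced at 5 stages with 3 replicates per line and stage, which gave 30 libraries. The *3mlpa* line is homozygous for the *mips1*, *mrp-l* and *mrp-n* mutations, which lower seed phytic acid, and 3MWT is homozygous for the non-mutant MIPS1, MRP-L and MRP-N alleles. They are recombinant inbred lines of 1 cross, of a *mips1* parent with an *mrp-l*/*mrp-n* parent, and are not isogenic, so differences between them cannot be told apart from differences at other loci of the cross. Seed length set the stages, which ran in equal classes from seeds of 2 to 4 mm (stage 1) and 4 to 6 mm (stage 2) up to seeds of 6 to 8 mm (stage 3), 8 to 10 mm (stage 4) and 10 to 12 mm (stage 5). Each replicate was a pool of seeds from different pods on separate plants of 1 growth chamber. By the study's methods the minimum number of seeds in a pool was larger at stages 1 and 2 than at stages 3 to 5, where it was 3. A seed held cotyledon, endosperm and seed coat. In such bulk samples, a change in the share of a tissue and a change of RNA per cell cannot be told apart. The 6 libraries of a stage shared a sequencing lane, so stage and lane cannot be told apart either.

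During seed filling the embryo of a legume stores protein in vacuoles and oil in lipid bodies. The transcripts for these products come to make up a large part of the RNA of a seed. Peptidase inhibitors are part of the protein that soybean seeds store. Cellulose synthases make the glucan chains of the cell wall. The files pair no gene with a name, and the roles given here come from the GO terms in the deposited annotation output. That output covers genes that differed between the lines in the authors' tables, so the 47 of 188 genes with a term were not a random sample, and no role is given to the rest.

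At the edge of the choice, Glyma05g35250, Glyma10g39690 and Glyma18g03220 were the last inside, with log2 rises of 4.58, 4.58 and 4.57 in 3MWT. Glyma10g40900, Glyma17g35260 and Glyma08g16880 were the next outside, with 4.56, 4.51 and 4.51. The lowest stage 5 means inside were 503 for Glyma10g36310, 509 for Glyma18g50770 and 533 for Glyma06g05310, and the highest means that missed the minimum were 464 for Glyma18g15770, 462 for Glyma15g05580 and 462 for Glyma13g36780. The 188 genes lay on all 20 chromosomes, from 4 genes on chromosome 17 to 16 on chromosome 13, and 3 pairs were near neighbours in the gene list. These pairs were Glyma06g45420 with Glyma06g45430, Glyma13g26330 with Glyma13g26340, and Glyma13g42310 with Glyma13g42320. Reads of near-identical genes cannot be split with certainty, so values of such neighbours and of duplicated genes are uncertain.

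The libraries held between 14150244 and 29476755 reads counted on genes. The 188 genes took 0.204 % ± 0.143 (SD, n = 3) of these reads at stage 1 in 3MWT and 2.56 % ± 1.34, 9.17 % ± 1.22, 13.2 % ± 0.830 and 16.7 % ± 1.51 at stages 2 to 5. In *3mlpa* they took 0.215 % ± 0.0614 (SD, n = 3) at stage 1 and 1.25 % ± 0.349, 7.86 % ± 3.51, 12.8 % ± 4.69 and 19.7 % ± 1.46 at stages 2 to 5. From stage 3 on, the 10 genes with the most reads at stage 5 in 3MWT held between 47.3 % and 54.8 % of the summed normalized count of the 188 in either line.

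Several libraries stood apart from their group over most of the genes. Of the 3 replicates of its group, 3MWT replicate 2 of stage 1 was the highest for 157 of the 188 genes, with a median of 1.38 on the log2 scale above the mean of the other replicates. Replicate 1 of 3MWT was the highest at stage 2 for 162 genes, with a median of 0.92. In *3mlpa*, replicate 1 of stage 3 was the lowest for 147 genes, with a median of -1.11, and replicate 3 of stage 4 was the highest for 171 genes, with a median of 0.88. In that library the 188 genes took 18.2 % of the reads, against 9.54 % and 10.8 % in the other replicates. Counts of calls and medians between the lines that moved without these libraries are given below with and without them. Other libraries were the lowest of their group for most genes. In 3MWT they were replicate 3 of stage 2 for 163 genes (median -0.80) and replicate 1 of stage 3 for 168 (-0.50). In *3mlpa* they included replicate 2 of stage 1 for 149 genes (-0.79) and replicate 1 of stage 4 for 164 (-0.72).

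**Figure D1:**
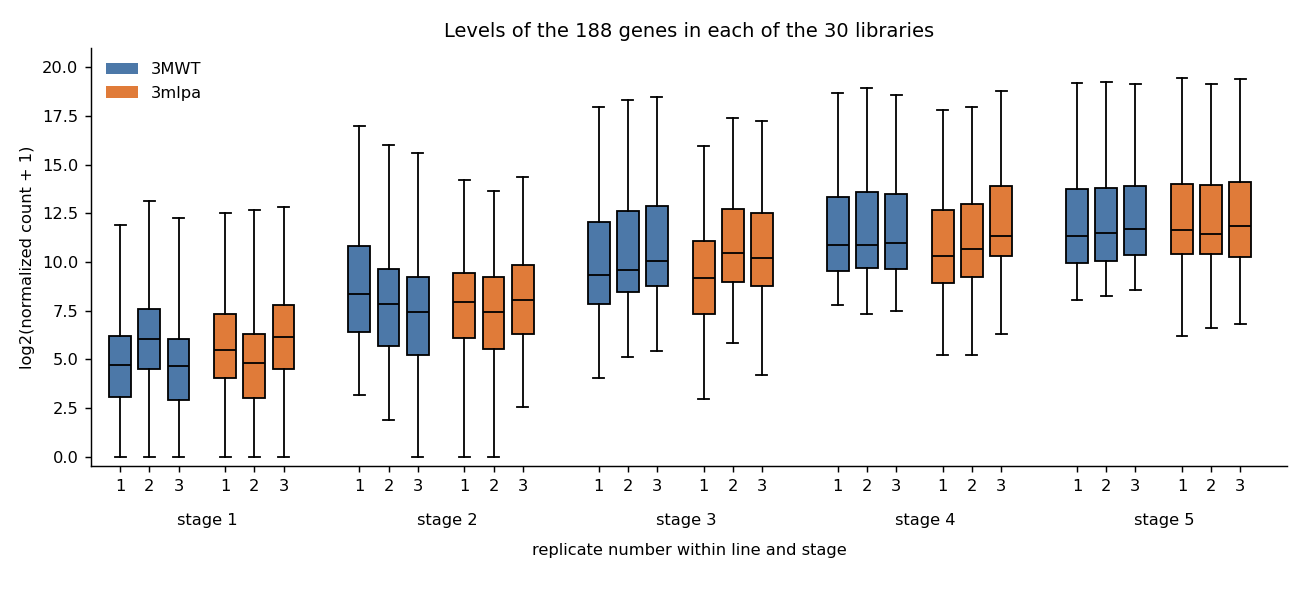
Levels of the 188 genes in each library, as log2 of the normalized count plus 1, for 3MWT (blue) and *3mlpa* (orange) at the 5 stages. The box is the interquartile range, the line in it the median, and the whiskers the lowest and highest gene. The boxes climb steeply from stage 1 to stage 3 in both lines, and replicate 3 of *3mlpa* at stage 4 sits above the other replicates of its group.

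In 3MWT the log2 rise from stage 1 to stage 5 ranged from 4.57 to 11.69 with a median of 6.38. The median level over the genes was 37.5 normalized counts at stage 1 and 2973 at stage 5. The median gene had 7.80 % of its stage 5 mean at stage 2, 36.4 % at stage 3 and 72.8 % at stage 4. The largest of the 4 log2 steps was that from stage 1 to 2 for 118 genes, from stage 2 to 3 for 51 and from stage 3 to 4 for 19, and for no gene was it the last step. Only 6 genes did not rise at every step, since 182 did.

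Glyma20g30460, a hydrolase of glycosyl bonds by its GO terms, had the largest rise in 3MWT, 11.69 on the log2 scale. Its stage 1 libraries had 10.5, 25.7 and 3.23 normalized counts in 3MWT and its stage 5 libraries 38141, 44150 and 57722. In *3mlpa* it had 0, 0 and 68.8 at stage 1, 0, 0 and 910 at stage 2 and 33753, 24686 and 11291 at stage 5. At stages 1 and 2, replicate 3 of *3mlpa* thus held all the reads of this gene in that line, and its rise in *3mlpa*, tested below, was called in 3 of the 6 fits that left out a library.

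Glyma10g03390 and Glyma02g16440, both listed under nutrient reservoir activity, the term for proteins stored for later use, rose by 10.35 and 10.63 in 3MWT. Glyma10g03390 had 134, 578 and 122 normalized counts in the stage 1 libraries of 3MWT and 340420, 381982 and 369332 at stage 5. Its *3mlpa* libraries had 261, 65.6 and 367 at stage 1 and 390417, 332418 and 387777 at stage 5. The lines overlapped at both ends of the series for this gene. The neighbours Glyma13g42310 and Glyma13g42320, which carry no term, rose by 10.70 and 10.60 in 3MWT and by 11.94 and 13.07 in *3mlpa*.

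Whether the same genes rise in *3mlpa* is a question the choice did not fix, since no *3mlpa* library was used for it. All 188 genes were higher at stage 5 than at stage 1 in *3mlpa* by edgeR's quasi-likelihood test, where a gene was called if its p after Benjamini-Hochberg adjustment was not above 0.01. Of all 44448 genes tested, 20.7 % were called higher and 21.6 % lower. The highest adjusted p among the 188 was 0.0050, for Glyma10g07410, which was called in 2 of the 6 fits that left out a library. The count was 185 to 188 when a *3mlpa* library of stage 1 or 5 was left out. For 187 genes every stage 5 library of *3mlpa* was above every stage 1 library, a count not made over all genes.

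The log2 rise in *3mlpa* ranged from 2.80 to 15.83 with a median of 6.18, on the same scale as the median of 6.38 in 3MWT. It was larger than in 3MWT for 87 genes and smaller for 101, and it was smaller by more than 1 for 44 and larger by more than 1 for 25. These differences were not tested, since a gene taken for a high ratio in 3MWT tends to have a lower ratio in samples that did not choose it. Ranking the *3mlpa* columns by the same rule gave a list of 188 genes of which 141 were shared, 75 % of either list. In *3mlpa* 174 genes had their highest mean at stage 5 and 14 at stage 4.

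**Figure D2:**
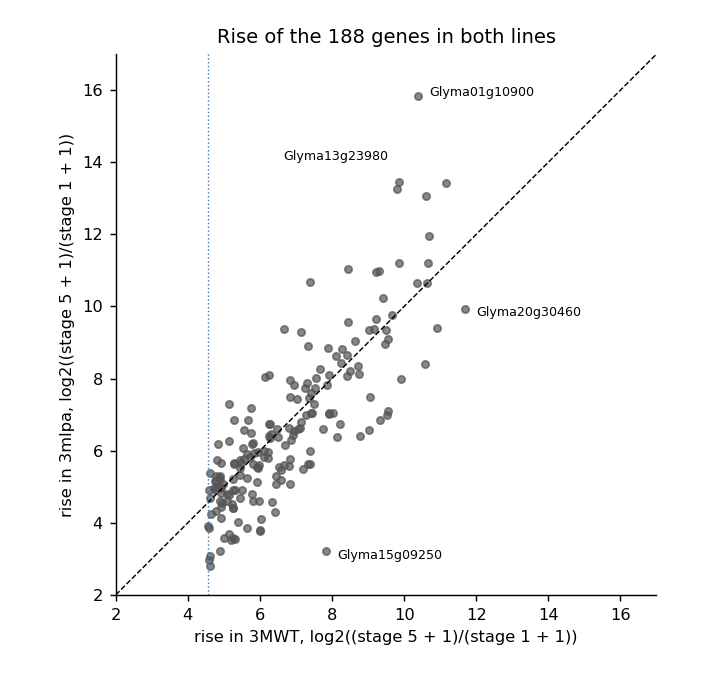
Log2 ratio of the stage 5 to the stage 1 mean, after adding 1 to each, in 3MWT (x axis) and *3mlpa* (y axis), 1 point per gene. The dashed line marks equal rises and the dotted line the lowest rise taken, 4.57. All 188 points lie at 2.80 or higher in *3mlpa*, with Glyma01g10900 at 15.83 and Glyma15g09250, at 3.20, far below the dashed line.

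The largest fitted increase in *3mlpa* was that of Glyma01g10900, a peptidase inhibitor by its GO terms. It had 0, 0 and 1.46 normalized counts in the stage 1 libraries of *3mlpa* and 104157, 89889 and 65171 at stage 5. In raw reads this was 2 against 190810, a ratio of 88530 per read counted on genes with an exact 95 % counting interval from 24507 to 731030 (edgeR's quasi-likelihood test, adjusted p = 7.0e-06). Glyma13g23980, Glyma12g34160, Glyma13g36400 and Glyma13g42320, which carry no term, came next in *3mlpa*, with log2 fold changes of 14.29 ± 1.97 (SE), 13.67 ± 1.86, 13.26 ± 1.87 and 13.09 ± 1.83. At stage 1 in *3mlpa*, Glyma13g23980 had 4 raw reads over 3 libraries and Glyma12g34160 had 17, so their fold changes rest on few reads. The stage 1 libraries of Glyma13g42320 in *3mlpa* had 7.48, 2.40 and 83.4 normalized counts, a wide spread.

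The smallest increases in *3mlpa* were still called. Glyma01g23040 rose by 2.81 ± 0.23 (SE) on the log2 scale (edgeR's quasi-likelihood test, adjusted p = 3.5e-07), from 227, 230.5 and 234 normalized counts at stage 1 to 1628, 2009 and 1211 at stage 5, with a higher mean of 2458 at stage 4. Glyma10g39690 rose by 2.98 ± 0.27, and Glyma16g03210, a hydrolase of ester bonds listed under lipid metabolism, by 3.07 ± 0.23. Glyma11g05660 rose by 3.22 ± 0.32 and Glyma15g09250 by 3.32 ± 0.38.

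In *3mlpa* most calls fell at the early steps. From stage 1 to 2, 105 genes were called higher and 0 lower, against 4.12 % and 1.05 % of all genes tested. From stage 2 to 3, 103 were called higher and 0 lower, against 1.99 % and 1.35 %. From stage 3 to 4, 2 were called higher and 0 lower, against 0.018 % and 0.009 %. The DESeq2 Wald test called 45 higher there and a single edgeR fit over all 30 libraries 15. Over all genes those settings called 777 of 44448 and 194 of 45815 higher. From stage 4 to 5, 0 were called in either direction, against 0.0045 % and 0.254 %. At the last step edgeR gave an unadjusted p under 0.05 for 49 of the 188 genes, against 20.8 % of all genes tested. Of these 49 genes 45 were higher and 4 lower. The DESeq2 Wald test called 3 of the 188 genes higher there, and 152 of all 44448. At the first 3 steps edgeR gave no gene an unadjusted p under 0.05 with a lower level at the later stage. The median log2 fold change of the 188 genes was 2.24, 2.33, 0.89 and 0.68 at the 4 steps in *3mlpa*, while over all genes tested it was between -0.02 and 0.00.

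Calls at the steps depended on single libraries. From stage 1 to 2 between 67 and 90 genes were called when 1 library was left out, with 67 without replicate 2 of stage 1. Over all genes that fit called 923 of 44151 higher, against 1832 of 44448 with every library. From stage 2 to 3 between 38 and 142 genes were called when 1 library was left out. The count was 142 without replicate 1 of stage 3 and 38 without replicate 2 of stage 2. Over all genes those fits called 1460 of 44316 and 203 of 44254 higher, against 885 of 44448 with every library. From stage 4 to 5 the count was 16 without replicate 3 of stage 4. Over all genes 428 of 44347 were then called higher, against 2 of 44448 with every library. Both early steps were called for 72 genes, and 52 genes were called at no single step, counts not made over all genes.

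Glyma08g45480, a peptidase inhibitor, had the largest called change from stage 1 to 2, 5.91 ± 0.89 (SE) on the log2 scale (edgeR's quasi-likelihood test, adjusted p = 0.00069). Glyma13g23980 had the largest change from stage 2 to 3, 7.41 ± 1.42 (adjusted p = 0.0058), called in 1 of the 6 fits that left out a library. From stage 3 to 4 the genes called were Glyma01g05500, a transferase of hexosyl groups, with 2.58 ± 0.25 (adjusted p = 0.0023), and Glyma15g18380, a transcription factor with sequence-specific DNA binding by its GO terms, with 1.56 ± 0.16 (adjusted p = 0.0023). Glyma01g05500 had 139, 140 and 232 normalized counts in the stage 3 libraries of *3mlpa* and 784, 969 and 1291 at stage 4, without overlap. Neither gene was called from stage 3 to 4 without replicate 2 of stage 3 or of stage 4.

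In *3mlpa* the largest step was that from stage 1 to 2 for 92 genes and that from stage 2 to 3 for 93, where 3MWT had 118 and 51. The median step from stage 1 to 2 was 2.18 in *3mlpa* and 2.75 in 3MWT, and the median step from stage 4 to 5 was 0.68 and 0.46. The median gene had 6.32 % of its stage 5 mean at stage 2 in *3mlpa*, 33.95 % at stage 3 and 62.2 % at stage 4. These values of 3MWT and *3mlpa* are given side by side, with the tests of the lines per stage below.

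The lines were compared stage by stage to ask which of these genes differed between *3mlpa* and 3MWT as the seed filled. In the fits per stage, stage 2 had the most calls among the 188 genes and over all genes. A single fit over 30 libraries gave another order over all genes, with 1936 called higher and 2408 lower at stage 1 and 1625 and 1802 at stage 2. The 3MWT libraries also chose the genes, which favours lower *3mlpa* values at stage 5 and higher ones at stage 1. Stages 2 to 4 entered the choice only through the condition that stage 5 was the highest. The number of alignments that HTSeq-count left out as not unique, per read counted on a gene, was 0.175 to 0.392 in the *3mlpa* libraries and 0.516 to 2.76 in those of 3MWT, without overlap, and its part in the results was not tested.

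At stage 2, 31 of the 188 genes (16.5 %) were called higher in *3mlpa*, against 7.68 % of all genes tested, and 14 (7.45 %) were called lower, against 6.56 %. The lines did not overlap for any of these 45 genes, a count not made over all genes. At stage 1, 2 of the 184 genes tested were called higher, against 0.572 %, and 1 lower, against 0.325 %. At stage 3, 2 genes were called higher, against 0.637 %, and 0 lower, against 0.591 %. At stage 4, 0 genes were called higher, against 0.355 %, and 1 lower, against 0.641 %. At stage 5, 2 genes were called higher, against 0.566 %, and 9 lower, against 1.34 %. In all, 51 genes were called at 1 or more stages, 11 of them at 2 stages and none at 3 or more. These counts over stages were not made over all genes.

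The counts of 0 need their context. At stage 3, edgeR gave an unadjusted p under 0.05 with *3mlpa* lower for 21 of the 188 genes. The DESeq2 Wald test called 9 of the 188 lower there after adjustment, and 1313 of all 40971 genes. At stage 4 the counts for *3mlpa* higher were 4 at the unadjusted p and 1 by DESeq2, which called 724 of all 39956 genes. In either direction, edgeR gave 55 of the 188 genes an unadjusted p under 0.05 at stage 3, against 29.8 % of all genes. At stage 4 it gave 26, against 24.0 %. Leaving out replicate 3 of *3mlpa* at stage 4 raised the number of genes called lower there from 1 to 70. Over all genes tested it rose from 256 of 39956 to 1964 of 39382. Leaving out replicate 1 of *3mlpa* at stage 3 raised the number called higher from 2 to 34. Over all genes it rose from 261 of 40971 to 3222 of 40379. Leaving out replicate 2 of 3MWT at stage 1 raised the number called higher from 2 to 23. Over all genes it rose from 243 of 42457 to 2113 of 41996.

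**Figure D3:**
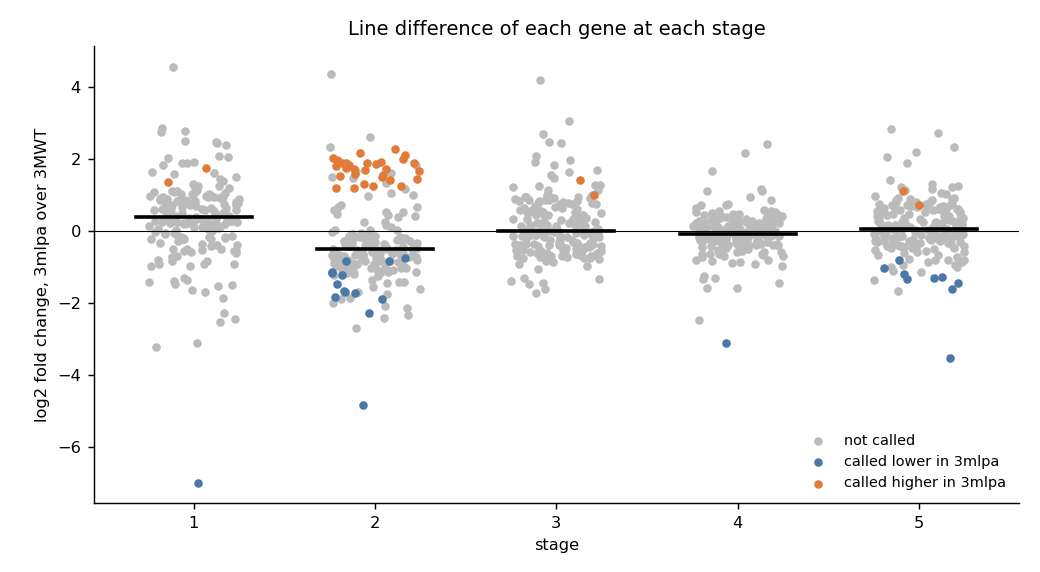
Log2 fold change of *3mlpa* over 3MWT for each gene (1 point) at each stage, with genes called higher in *3mlpa* in orange, genes called lower in blue, the rest in grey and the median as a black bar. Stage 2 carries 31 orange and 14 blue points on either side of a median of -0.50, and stage 5 has 2 orange and 9 blue points.

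Over all 188 genes the median log2 fold change of *3mlpa* over 3MWT was 0.38 at stage 1 (184 genes) and -0.50 at stage 2, and in the later stages it was 0.00, -0.08 and 0.07 in turn. The medians over all genes tested lay between -0.0038 and 0.03. At stage 2 the genes fell on both sides, with 127 lower and 61 higher in *3mlpa*. The median at stage 1 was 1.05 without replicate 2 of 3MWT and 0.12 without replicate 3 of *3mlpa*. At stage 3 it was 0.28 without replicate 1 of *3mlpa*, and at stage 4 it was -0.51, with 160 genes lower, without replicate 3 of *3mlpa*. The median at stage 2 was 0.02 without replicate 1 of 3MWT, and the number of genes called higher was then 35, with 10 called lower. Over all genes 3202 and 3040 of 41951 were then called higher and lower. Between 21 and 29 of the 31 genes called higher were still called when any 1 library of stage 2 was left out, whereas of the 14 called lower between 3 and 13 were.

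The genes called higher at stage 2 rose late in 3MWT. Their median level at stage 2 was 3.20 % of the stage 5 mean in 3MWT and 13.4 % in *3mlpa*, and at stage 3 it was 12.3 % and 32.7 %. The 14 genes called lower had reached 13.7 % of their stage 5 mean at stage 2 in 3MWT and 6.06 % in *3mlpa*. The stage 2 libraries made these calls, so the shares at stage 2 follow in part from the calls. The 3MWT stage 5 means behind the 3MWT shares were also used by the choice of the genes. Stage 3 libraries made none of these calls. There the genes not called at stage 2 had a median of 41.2 % in 3MWT, against 12.3 % for those called higher. Of the 118 genes whose largest step in 3MWT was that from stage 1 to 2, 0 were called higher at stage 2 and 12 lower. Of the 19 genes whose largest step in 3MWT was that from stage 3 to 4, 13 were called higher, 0 were called lower, and all 19 had a higher fitted level in *3mlpa*.

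That grouping shares the stage 2 libraries of 3MWT with the line comparison, so the genes were also grouped by the 3MWT step from stage 3 to 4, which uses no library of stage 2. Among the 47 genes with the largest such step, 1.61 or more on the log2 scale, 23 were called higher in *3mlpa* at stage 2 and 1 lower, with a median fold change of 1.60. Among the next 47 genes, 7 were called higher and 2 lower, and among the third 47, 1 was called higher and 6 lower. Among the 47 with the smallest step, 0.60 or less, 0 were called higher and 5 lower, with a median of -0.85. This grouping was made after the calls were seen and is a description.

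All 5 genes listed under cellulose synthase activity were higher in *3mlpa* at stage 2. They were also among the genes of a glucan metabolism list that the study drew from these samples, so their direction is not independent evidence. Glyma09g05630 had 175, 228 and 160 normalized counts in the stage 2 libraries of 3MWT and 670, 874 and 639 in those of *3mlpa*. The lines were far apart, with a log2 fold change of 1.97 ± 0.16 (SE) and an adjusted p of 0.00022 by edgeR's quasi-likelihood test. Glyma15g16900 had 42.2, 45.8 and 28.4 in 3MWT and 164, 205 and 145 in *3mlpa*, a log2 fold change of 2.18 ± 0.21 (adjusted p = 0.00041). The other genes of this group, Glyma06g06870, Glyma06g30860 and Glyma04g23530, had log2 fold changes of 1.68 ± 0.24, 1.58 ± 0.19 and 1.45 ± 0.20, all called. All 5 were called whichever library of stage 2 was left out.

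None of these 5 genes was called at another stage. Their log2 fold changes were 0.62 to 0.96 at stage 1, 0.85 to 1.28 at stage 3, -0.25 to -0.07 at stage 4 and -0.87 to -0.42 at stage 5. Glyma09g05630 ended at 7690, 7571 and 6607 normalized counts in 3MWT and at 5946, 5911 and 4393 in *3mlpa*. The 3MWT libraries were the higher ones for it at stage 5, where the choice of the genes favours 3MWT, and the reverse held at stage 2.

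The 6 genes listed under peptidase inhibitor activity lay on the other side, as did 127 of all 188 genes at stage 2. Their terms come from the output that covers genes differing between the lines in the authors' tables, so their direction is not independent evidence. At stage 2 all 6 had a negative log2 fold change of *3mlpa* over 3MWT, from -4.85 to -1.08, and 2 of them were called lower. The lines did not overlap at stage 2 for 5 of them, and they overlapped for Glyma11g36780. Glyma08g45531 had 129834, 65854 and 50293 normalized counts in 3MWT and 18798, 10955 and 20926 in *3mlpa* at stage 2. It differed by -2.27 ± 0.37 (SE) on the log2 scale (edgeR's quasi-likelihood test, adjusted p = 0.0031), a call that held in 3 of the 6 fits that left out a library. By stage 5 the lines overlapped for this gene, with 593730, 610836 and 575995 in 3MWT and 619304, 585174 and 418517 in *3mlpa*. Its log2 fold change there was -0.13 ± 0.19 with an adjusted p of 0.68.

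Glyma01g10900 was the gene with the largest difference between the lines at stage 1. Its 3MWT libraries had 42.1, 145 and 50.7 normalized counts at stage 1, where those of *3mlpa* had 0, 0 and 1.46. In raw reads this was 239 against 2, a ratio of 138 per read counted on genes with an exact 95 % counting interval from 37.9 to 1148 (edgeR's quasi-likelihood test, adjusted p = 0.0090). At stage 2 it had 5000, 1271 and 606 in 3MWT and 59.1, 15 and 160 in *3mlpa*, a log2 fold change of -4.85 ± 0.94 (adjusted p = 0.0065). At stage 5 the libraries overlapped. The calls for Glyma01g10900 held in 1 of the 6 fits at stage 1 and in 2 of the 6 at stage 2 that left out a library, with adjusted p up to 0.055 and 0.027. Glyma08g45480, at -2.41 ± 0.53 and an adjusted p of 0.011 at stage 2, missed the threshold.

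**Figure D4:**
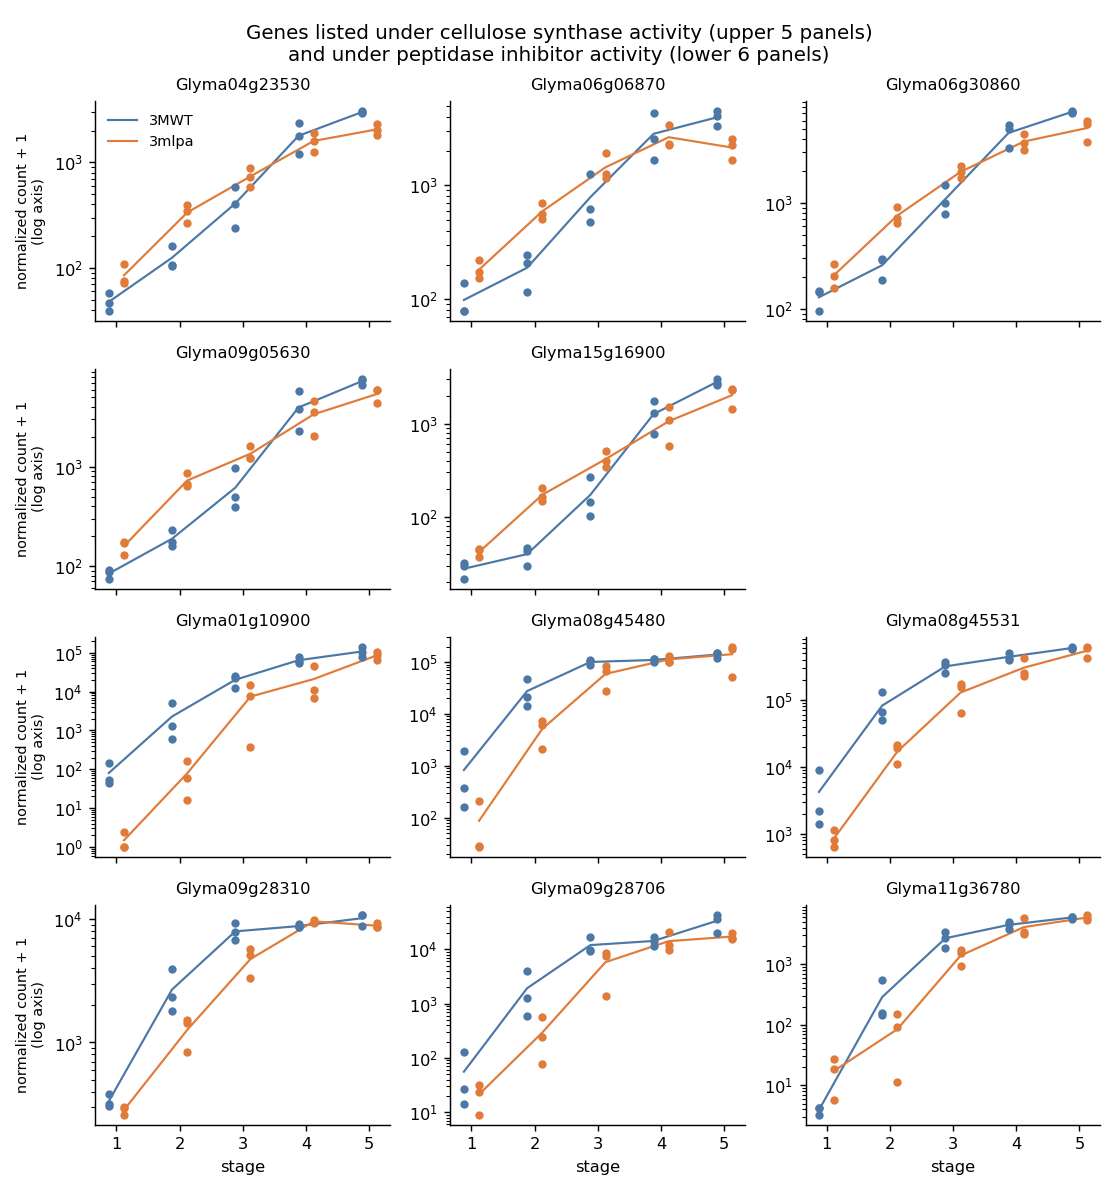
Normalized count plus 1 on a log axis by stage for the 5 genes listed under cellulose synthase activity and the 6 listed under peptidase inhibitor activity. Points are libraries, lines join the means of 3 replicates, blue is 3MWT and orange *3mlpa*. At stage 2 the orange points of the 5 upper panels lie above the blue ones, and those of the lower panels lie below them except for Glyma11g36780, where the lines overlap.

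The 5 genes listed under nutrient reservoir activity were not called between the lines at any stage. Their log2 fold changes at stage 2 were -2.08 to -0.22, and at stage 5 they were -0.51 to 0.43. The difference of Glyma10g03390 was -1.41 ± 0.50 (SE) at stage 2 (edgeR's quasi-likelihood test, adjusted p = 0.063) and 0.03 ± 0.15 at stage 5 (adjusted p = 0.92). A p above the threshold does not show that the lines had equal levels at stage 2, where the error was wide.

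Several other genes with a role in the annotation were called at stage 2. Glyma07g06640 and Glyma16g03210, hydrolases of ester bonds listed under lipid metabolism, were higher in *3mlpa*, with log2 fold changes of 1.96 ± 0.19 (SE) and 1.41 ± 0.13. Glyma07g06640 had 160, 225 and 132 normalized counts in 3MWT and 591, 775 and 609 in *3mlpa*. The third gene of lipid metabolism, the oxidoreductase Glyma20g24530, was lower by -1.14 ± 0.24. Glyma09g04330 and Glyma15g15360, hydrolases of glycosyl bonds listed under breakdown of cell wall macromolecules, were higher, with 1.89 ± 0.21 and 1.99 ± 0.20.

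Glyma15g18380, the transcription factor gene named above, was lower in *3mlpa* at stage 2. It had 186, 153 and 117 normalized counts in 3MWT and 39, 40.6 and 47.1 in *3mlpa*, a log2 fold change of -1.83 ± 0.19 (SE, edgeR's quasi-likelihood test, adjusted p = 0.00055). By stage 4 the lines overlapped, with 584, 797 and 659 in 3MWT and 623, 708 and 901 in *3mlpa*. Glyma03g33803, a membrane transporter gene, was also lower at stage 2, with 159, 149 and 107 in 3MWT and 37.1, 36.6 and 52.7 in *3mlpa*, a log2 fold change of -1.69 ± 0.21 (adjusted p = 0.00097). Both were called whichever library of stage 2 was left out.

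The largest increase called at stage 2 was that of Glyma04g00710, a gene with no term. Its libraries lay between 28.9 and 56.8 normalized counts in 3MWT and between 162 and 242 in *3mlpa*, a log2 fold change of 2.29 ± 0.26 (SE, edgeR's quasi-likelihood test, adjusted p = 0.00072). After it came Glyma15g16900, given above, and Glyma02g31140, which carries no term, with 2.11 ± 0.28. Among the genes called lower, Glyma01g43780, an oxidoreductase, differed by -1.90 ± 0.36.

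At stages 1 and 3 few genes were called. Glyma13g09530 had 1887, 2423 and 1566 normalized counts in 3MWT and 5874, 6524 and 7292 in *3mlpa* at stage 1, a log2 fold change of 1.77 ± 0.19 (SE, edgeR's quasi-likelihood test, adjusted p = 0.0049). Glyma14g09620 was higher by 1.36 ± 0.15 at stage 1 (adjusted p = 0.0050). At stage 3 Glyma15g15360 was higher by 1.42 ± 0.20 (adjusted p = 0.0073) and Glyma19g32450 by 1.01 ± 0.15 (adjusted p = 0.0099). Each of these 4 calls was lost in 4 or 5 of the 6 fits that left out a library. For the stage 1 calls, the choice of the genes by 3MWT values also favours higher levels in *3mlpa*. Glyma13g09530 also had 1 library far from its group at stage 5 in *3mlpa*, with 144327, 124251 and 4741 normalized counts.

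The gene that differed most late in the series was Glyma15g09250, which carries no term. It rose from 6.02, 2.14 and 3.23 normalized counts at stage 1 to 881, 1019 and 1407 at stage 5 in 3MWT. In *3mlpa* it had 8.97, 9.60 and 9.51 at stage 1 and only 72.6, 97.2 and 114 at stage 5. The lines were apart at stage 4, with 556, 404 and 335 in 3MWT and 36.1, 36.7 and 79.3 in *3mlpa*. Its log2 fold change was -3.12 ± 0.33 (SE) at stage 4 (edgeR's quasi-likelihood test, adjusted p = 0.0029) and -3.53 ± 0.23 at stage 5 (adjusted p = 0.00037). The stage 5 call held in all 6 fits that left out a library, and the stage 4 call in 1 of them, that without replicate 3 of *3mlpa*. Every stage 5 fit used 3MWT values that also chose this gene, which favours a lower level in *3mlpa* there.

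Glyma16g28030, a gene of photosynthetic light harvesting, was lower in *3mlpa* at stage 5 by -1.21 ± 0.13 (SE, edgeR's quasi-likelihood test, adjusted p = 0.0026). Its libraries had 1000, 889 and 747 normalized counts in 3MWT and 339, 385 and 411 in *3mlpa*. It was the only one among the 188 of 45 photosynthesis genes that the study chose on these samples, which are part of a longer list of the study. The summed normalized count of those 45 genes at stage 5 was 147755 to 176397 in the 3MWT libraries and 74265 to 94426 in those of *3mlpa*, without overlap. The part of green tissue in the result was not tested. Glyma16g28030 was itself chosen by the 3MWT values at stage 5, which favours a lower level in *3mlpa* there.

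Of the other genes called at stage 5, only Glyma08g03060 and Glyma06g35630 carry a GO term. Glyma08g03060, which has catalytic activity by its GO terms, was lower by -1.44 ± 0.16 (SE), with 1349, 1210 and 1176 normalized counts in 3MWT and 478, 547 and 352 in *3mlpa* (edgeR's quasi-likelihood test, adjusted p = 0.0029). Glyma18g50770 was lower by -1.61 ± 0.23 and Glyma10g39690 by -1.32 ± 0.18, and both were among the 31 genes higher in *3mlpa* at stage 2. The genes called higher were Glyma11g19070, with 1080, 1270 and 1678 in 3MWT and 3212, 2669 and 2894 in *3mlpa*, and Glyma14g11770, by 0.72 ± 0.11 on the log2 scale, which had 650, 604 and 682 in 3MWT and 1179, 994 and 1005 in *3mlpa*. Apart from Glyma15g09250, no gene called at stage 5 was called in all 6 fits that left out a library. All these genes were chosen by 3MWT values of stage 5 as well, which favours lower levels in *3mlpa* there.

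The number of calls at stage 5 depended on the test and on single libraries. The DESeq2 Wald test called 32 of the 188 genes higher and 22 lower at stage 5. Over all 39253 genes it called 1171 higher and 1875 lower. Without replicate 3 of *3mlpa*, edgeR called 23 of the 188 genes higher and 22 lower, and over all 38567 genes 1490 and 2232. All of the 11 genes called with that library were still called without it. Without replicate 1 of 3MWT 0 genes were called higher and 1 lower, and over all 38789 genes 45 and 156. At stage 5, 99 of the 188 genes had an unadjusted p under 0.05 by edgeR, 59 of them higher and 40 lower, against 30.4 % of all genes tested. The 3MWT values at that stage also chose the genes.

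**Figure D5:**
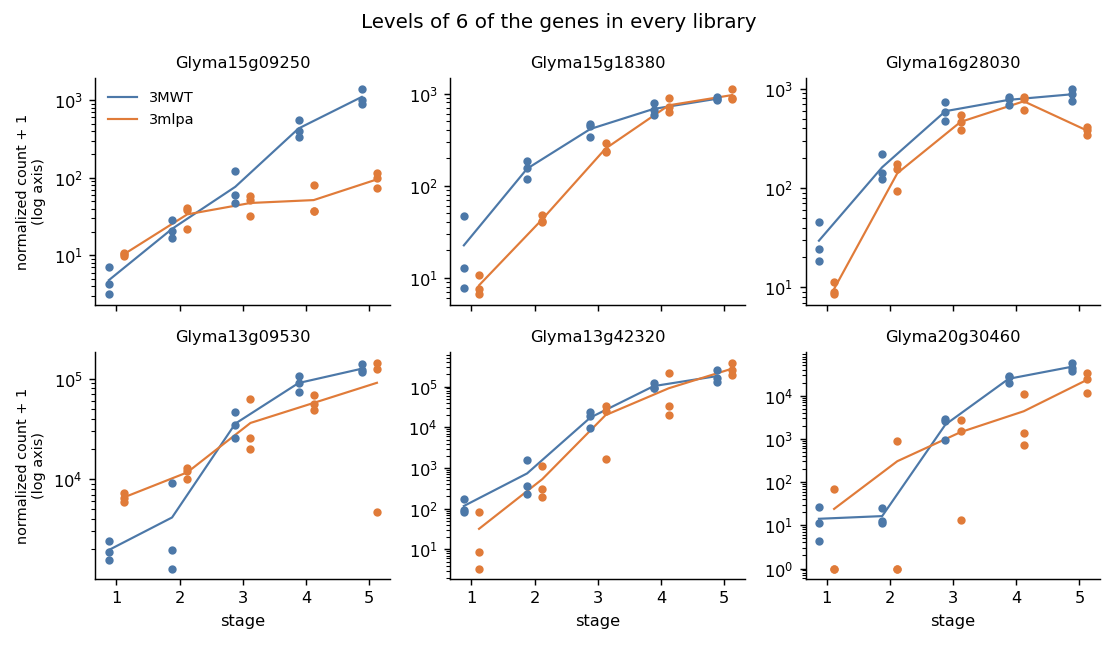
Normalized count plus 1 on a log axis by stage for 6 of the genes, with points for libraries and lines through the means of 3 replicates in 3MWT (blue) and *3mlpa* (orange). Glyma15g09250 stays at 114 or below in *3mlpa* while 3MWT reaches 1407, and a single *3mlpa* library of Glyma13g09530 at stage 5 lies at 4741.

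Whether the line difference changed from stage 2 to stage 4 was tested in a single fit over all 30 libraries. The difference was called more positive at stage 4 for 1 of the 188 genes, against 0.0698 % of the 45815 genes tested. It was called more negative for 5, against 0.157 %, or for 13 without replicate 3 of *3mlpa* at stage 4. Over all genes that last fit called 67 of 45755 more negative. The gene called more positive was Glyma15g18380, by 2.01 ± 0.39 (SE) on the log2 scale (edgeR's quasi-likelihood test, adjusted p = 0.0097). The genes called more negative were Glyma15g09250 (-3.77 ± 0.50), Glyma19g36470 (-2.54 ± 0.49), Glyma11g00280 (-2.32 ± 0.34), Glyma15g15360 (-1.92 ± 0.36) and Glyma06g30860 (-1.79 ± 0.34).

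Glyma11g00280 was apart between the lines at stage 2 and overlapped at stage 4. It had 185, 177 and 99.3 normalized counts in 3MWT and 453, 591 and 434 in *3mlpa* at stage 2, and 2829, 2016 and 3999 in 3MWT and 1622, 1859 and 2061 in *3mlpa* at stage 4. At stage 5 it was called lower in *3mlpa*, by -1.04 ± 0.12 (SE, edgeR's quasi-likelihood test, adjusted p = 0.0033). The 3MWT values at stage 5 also chose this gene. Glyma15g09250 and Glyma11g00280 were called for the change between stages in all 12 fits that left out a library, and Glyma15g18380 in none of them. The other genes were called in 1 to 3 of these fits.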

How the data were processed

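RNA of whole seeds from *3mlpa* and 3MWT was sequenced in 30 libraries. Per the labels and methods, the authors mapped reads with TopHat2 2.0.8 to the genome of cultivar Williams 82, with version 1.1 of its gene annotation, and deposited raw counts per gene from HTSeq-count in Union mode. The deposited normalized abundances, a signal in the unit of counts, are these counts divided by DESeq 1.12.1 size factors over all 30 libraries. The authors' deposited agriGO output holds counts of genes per term, and its gene entries were used as annotation only. The tables of the authors' own comparisons of the lines (fold changes and adjusted p-values) were not used. HTSeq-count's summary entries stayed out of the tests. The reads on no gene were 13.1 % to 29.7 % of the sum of the gene counts, those reads and the reads it left as ambiguous.

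The 188 genes and all lists were chosen with earlier results of these data known. Raw counts were tested with edgeR 4.0.16 in R 4.3.3 (TMM, quasi-likelihood test) over all genes with at least 10 summed counts, per stage over 6 libraries, in the 15 *3mlpa* libraries, or in all 30. A gene was called if its p, adjusted by Benjamini-Hochberg, did not exceed 0.01, and the SE is the log2 fold change divided by the square root of F. Tests were run on simulated counts with the same dispersion for every gene and no library set apart. The libraries here had a wider spread, so that run does not show how the tests perform on them. Named genes were taken by a fixed rule of size of rise, reads, call and GO term, and not all are printed. Glyma04g23530, Glyma10g07410 and the neighbouring genes were added after their values were seen. Alternatives were DESeq2 1.42.0 (size factors and Wald test), other filters, a 2-fold minimum, other sets of libraries, a replicate block, each library left out, and other rules of membership. Counting intervals cover counting error only. Replicates were separate pools of seeds, and p-values measure the spread between these pools. Promoter motifs, gene lengths and sequences were not analysed here.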

Additional observations from a re-analysis of the deposited data

Results flagged for a closer look

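For 6 of the 188 genes the difference between the lines was called as changed from stage 2 to stage 4, by the test of that difference itself (edgeR's quasi-likelihood test over 30 libraries). The log2 change of the difference was -3.77 for Glyma15g09250, -2.54 for Glyma19g36470, -2.32 for Glyma11g00280, -1.92 for Glyma15g15360, -1.79 for Glyma06g30860 and 2.01 for Glyma15g18380. Glyma19g36470 had 42.2, 41.3 and 28.9 normalized counts in 3MWT and 161, 164 and 124 in *3mlpa* at stage 2, and 1381, 859 and 1942 in 3MWT and 652, 904 and 1274 in *3mlpa* at stage 4. The lines of Glyma19g36470 were apart at stage 2 and overlapped at stage 4. Glyma15g09250 and Glyma11g00280 were called in all 12 fits that left out a library, 3 others in 1 to 3 of them and Glyma15g18380 in 0. With the replicate block 0 genes were called more positive and 2 more negative at stage 4, against 23 and 67 of all 45815 genes.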

How the results depend on the processing

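All 188 genes were called higher at stage 5 than at stage 1 in *3mlpa* under every alternative that used the 15 libraries or all 30, 187 with only the 6 libraries of stages 1 and 5, and 185 to 188 with 1 library left out. The 56 named values and calls kept their direction in all 718 alternative values, 555 of which lay on the same side of the threshold.

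With 1 library left out, genes called higher and lower between the lines numbered 0 to 23 and 0 to 3 at stage 1, 22 to 35 and 3 to 23 at stage 2, 0 to 34 and 0 to 0 at stage 3, 0 to 1 and 0 to 70 at stage 4, and 0 to 23 and 1 to 22 at stage 5. Steps in *3mlpa* gave 67 to 90, 38 to 142, 0 to 7 and 0 to 16 genes called higher, and the change of the line difference from stage 2 to 4 gave 0 to 0 and 2 to 13. Counts over all genes moved with the libraries as well, as given above. The list of genes itself shared 175 to 186 of 188 genes, and 151 and 150 with a minimum mean of 250 and 1000.

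With the DESeq2 Wald test, genes called higher and lower numbered 12 and 3 at stage 1, 24 lower at stage 2, 11 and 9 at stage 3, 1 and 9 at stage 4, and 32 and 22 at stage 5. Over all genes this test called 2316 and 1806 of 42457 at stage 1 and 3593 of 42269 lower at stage 2. It called 1516 and 1313 of all 40971 genes at stage 3 and 724 and 1139 of 39956 at stage 4. Of the 188 genes it called 163, 45 and 3 higher at the last 3 steps, and 2 and 24 for stage 4 against stage 2. Over all genes it called 2110, 777 and 152 of 44448 higher at those steps. For stage 4 against stage 2 it called 207 and 521 of all 45815. A single fit over 30 libraries called 4 and 5 of the 188 at stage 1, 8 lower at stage 2 and 5 and 3 at stage 3. It called 2 lower at stage 4, 0 higher at stage 5, and 156, 15 and 3 at the last 3 steps. Of all 45815 genes that fit called 1936 and 2408 at stage 1, 1802 lower at stage 2 and 1742 and 1753 at stage 3. It called 884 of them lower at stage 4, 1335 higher at stage 5, and 1716, 194 and 72 higher at the last 3 steps. DESeq2 size factors gave 1 higher at stage 3 and 0 more positive at stage 4 against stage 2, against 252 of 40971 and 17 of 45815 genes. They moved the median of all genes by at most 0.05. No filter gave 1 and 2 at stage 4 and 4 higher at stage 5, against 205 and 358 of 46200 genes and 345 of 45644. A 2-fold minimum gave 1 higher at stage 5. Only the 12 libraries of stages 2 and 4 gave 8 more negative, against 225 of 43479 genes. The causes were not tested.

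With the replicate block, genes called higher and lower numbered 0 and 0 at stage 1, 29 and 8 at stage 2 and 0 and 1 at stage 3. They numbered 1 and 1 at stage 4, 7 and 10 at stage 5, and 0 and 2 for stage 4 against stage 2, with 188 for the whole rise. Over all genes the block called 7 and 20 of 42457 at stage 1 and 1842 and 1176 of 42269 at stage 2. It called 131 and 138 of 40971 at stage 3 and 119 and 173 of 39956 at stage 4. At stage 5 it called 174 and 451 of 39253, and 23 and 67 of 45815 for stage 4 against stage 2. For the whole rise it called 9265 of 44448 higher. The correlation of the deviations of same-numbered libraries ranged from -0.32 to 0.33 between the lines at a stage. Between neighbouring *3mlpa* stages it ranged from -0.28 to 0.47. With 3 libraries a group these values cannot decide whether same-numbered libraries share more than a number.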
